A study of Homo sapiens with 4 samples.

Results

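The 8 genes described here encode the transketolase family (TKTL1, TKT and TKTL2) and 5 further enzymes of the pentose phosphate pathway (TALDO1, RPIA, RPE, PGD and PGLS). They were taken from 17958 genes as those whose symbol a probe set of the array carries alone, and each of the 8 had 1 such probe set. TKTL1 drew attention to the group through its change between treated and vehicle arrays, so every value of the 8 genes in that contrast is a description and not a test. The study measured transcript levels in HCT116, an established human colorectal carcinoma cell line, on 4 Affymetrix arrays of total RNA. The 2 treated samples received 1 µM of 5-aza-2'-deoxycytidine, also called decitabine, a nucleoside that traps DNA methyltransferases once it is in DNA, with another dose at 48 hours, and RNA was taken at 72 hours. The 2 vehicle samples came from the same line, and what the vehicle was is not given in the sources used here. All 4 come from 1 cell line, and no label says that the 2 samples of a group were separate cultures, so the spread between them may be technical.

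The pentose phosphate pathway branches from glycolysis. Its oxidative steps, which include those of PGLS and PGD, turn glucose phosphate into ribulose phosphate and make NADPH, and its non-oxidative steps exchange carbon units between sugar phosphates and return them to glycolysis or supply ribose for nucleotides. Transketolase (TKT) carries out the exchanges with thiamine diphosphate as cofactor. TKTL1, on the X chromosome, encodes a transketolase-like protein whose enzymatic activity is disputed, and it is known as a testis-expressed gene that appears in some tumors. TKTL2, on chromosome 4, encodes another transketolase-like protein.

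Levels are log2 values of the RMA method, in which 1 unit is a factor of 2 (RMA corrects background, equalizes the distributions of the arrays and summarizes probes). The array medians lay between 5.72 and 5.84. Pearson's correlation across all probe sets was 0.995 between the vehicle arrays, 0.992 between the treated arrays and 0.966 to 0.971 across groups; probe sets are not independent replicates. As a check of the cell type, all 10 markers of epithelium tested had mean levels of 7.83 or more in both groups. Of these markers 6 were called lower in treated cells and 1 higher, by limma at an adjusted p under 0.05. Over all genes 15.6% were called lower and 12.4% higher. Of 15 markers of leukocytes, endothelium, fibroblasts and red cells, 5 were called higher and 0 lower by limma (at an unadjusted p under 0.05, 6 were higher and 0 lower, with no share over all genes given). The 5 were CD3D, CD3E, CD14, PECAM1 and COL1A1. The 10 not called included PTPRC (means 3.02 in vehicle and 3.12 in treated cells), CDH5 (4.31 and 4.49), COL1A2 (4.74 and 4.85) and HBB (3.17 and 3.18). The summed linear signal of the 15 markers was 360 and 375 on the vehicle arrays and 661 and 575 on the treated arrays. The part of these shifts in the results on the 8 genes was not tested.

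The bases before the annotated starts of the 3 transketolase genes are shown because the agent inhibits the methylation of cytosines in CG dinucleotides and because these genes stand at both ends of the order of changes. Each sequence holds the 250 bases before the start, from RefSeq on GRCh38.p14, read 5′ to 3′ on the gene's strand with every CG in capitals. RefSeq lists a pair of starts for TKTL1, 9375 bases apart, at chrX:154295545-154295794 and chrX:154304920-154305169, both on the + strand; the TKT window is chr3:53256023-53256272 and the TKTL2 window chr4:163473755-163474004, both on the - strand.
TKTL1 first start: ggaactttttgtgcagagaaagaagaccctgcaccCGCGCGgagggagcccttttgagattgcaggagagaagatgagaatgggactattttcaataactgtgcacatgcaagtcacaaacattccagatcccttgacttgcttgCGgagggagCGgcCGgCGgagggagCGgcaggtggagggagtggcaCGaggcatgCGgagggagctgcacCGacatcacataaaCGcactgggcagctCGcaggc
TKTL1 second start: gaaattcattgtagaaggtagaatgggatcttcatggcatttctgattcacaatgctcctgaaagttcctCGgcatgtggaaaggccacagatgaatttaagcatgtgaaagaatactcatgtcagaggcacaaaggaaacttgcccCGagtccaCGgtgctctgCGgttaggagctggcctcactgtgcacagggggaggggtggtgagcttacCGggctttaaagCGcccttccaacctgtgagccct
TKT: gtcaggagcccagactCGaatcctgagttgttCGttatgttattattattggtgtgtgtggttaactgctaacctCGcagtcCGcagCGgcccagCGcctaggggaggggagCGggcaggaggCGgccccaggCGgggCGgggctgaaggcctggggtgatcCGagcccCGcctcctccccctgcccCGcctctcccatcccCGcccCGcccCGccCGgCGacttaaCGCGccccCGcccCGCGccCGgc
TKTL2: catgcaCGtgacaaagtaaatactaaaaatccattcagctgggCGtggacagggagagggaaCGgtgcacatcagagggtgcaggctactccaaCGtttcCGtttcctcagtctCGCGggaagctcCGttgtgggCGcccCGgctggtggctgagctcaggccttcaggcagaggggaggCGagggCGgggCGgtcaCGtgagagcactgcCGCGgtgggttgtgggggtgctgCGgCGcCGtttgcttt
The first TKTL1 window held 13 CG dinucleotides and the second 6, against 24 for TKT and 19 for TKTL2. The windows of the other 5 enzymes held 19 to 40, the most being those of TALDO1. TKTL1 thus had the fewest of the 8 genes at both starts. A link between the number of CG and the change was not tested. Among 35116 windows of this length in RefSeq, 93.9% held at least 1 CG, the median was 11 and the quartiles were 3 and 23. The observed number of CG over that given by the base composition was 0.66 and 0.38 for TKTL1, 0.78 for TKT and 0.82 for TKTL2. Methylation was not measured, and which TKTL1 start was used cannot be told from 1 probe set.

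Among the 8 genes, TKTL1 had the largest difference between treated and vehicle cells. Its level was 5.00 and 4.72 on the vehicle arrays and 12.44 and 12.43 on the treated arrays. Both treated arrays lay far above both vehicle arrays, and the treated arrays differed from each other by less than the vehicle arrays did. The log2 fold change was 7.57 (moderated SE 0.14, 95% interval 7.25 to 7.90, n = 2 per group), a ratio of 191, which ranked 2 among all genes. With any 1 array left out it lay between 7.43 and 7.71. Whether the vehicle level lies above background is unknown without detection calls, and the ratio is that of the RMA scale.

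TKT differed in the other direction by a small amount. Its level was 11.90 and 12.13 in vehicle and 11.43 and 11.59 in treated cells. The groups did not overlap, and the gap between the nearest arrays was somewhat wider than the spread within either group. The log2 fold change was -0.51 (SE 0.14, 95% interval -0.83 to -0.19), or 1.42-fold lower. It passed limma's threshold over all genes, and it did not pass without vehicle replicate 1 (-0.62), without vehicle replicate 2 (-0.39), without treated replicate 1 (-0.43) or after centring on housekeeping genes (-0.45).

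TKTL2 lay low on the scale in every sample. Its level was 4.85 and 5.14 in vehicle and 5.43 and 5.89 in treated cells. Both treated arrays were above both vehicle arrays, and the treated arrays lay further from each other than the nearest arrays of the groups did. The log2 fold change was 0.66 (SE 0.18, 95% interval 0.22 to 1.10). It passed the threshold over all genes, and did not pass without vehicle replicate 1 (0.52), without treated replicate 2 (0.43) or after repeated quantile normalization (0.56). Cross-hybridization among the TKTL1, TKT and TKTL2 probe sets was not tested.

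Taken within each array, the log2 level of TKTL1 relative to that of TKT increased by 8.08 between vehicle and treated arrays (SE 0.27 from 4 arrays), and relative to that of TKTL2 by 6.91 (SE 0.37). Relative to the other 5 enzymes the increase lay between 7.57 (TALDO1) and 7.94 (RPE). For each of the 7 genes, the smallest treated value of this difference exceeded the largest vehicle value by at least 6.39. These are differences of changes; the levels of different probe sets are not compared.

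**Figure D1:**
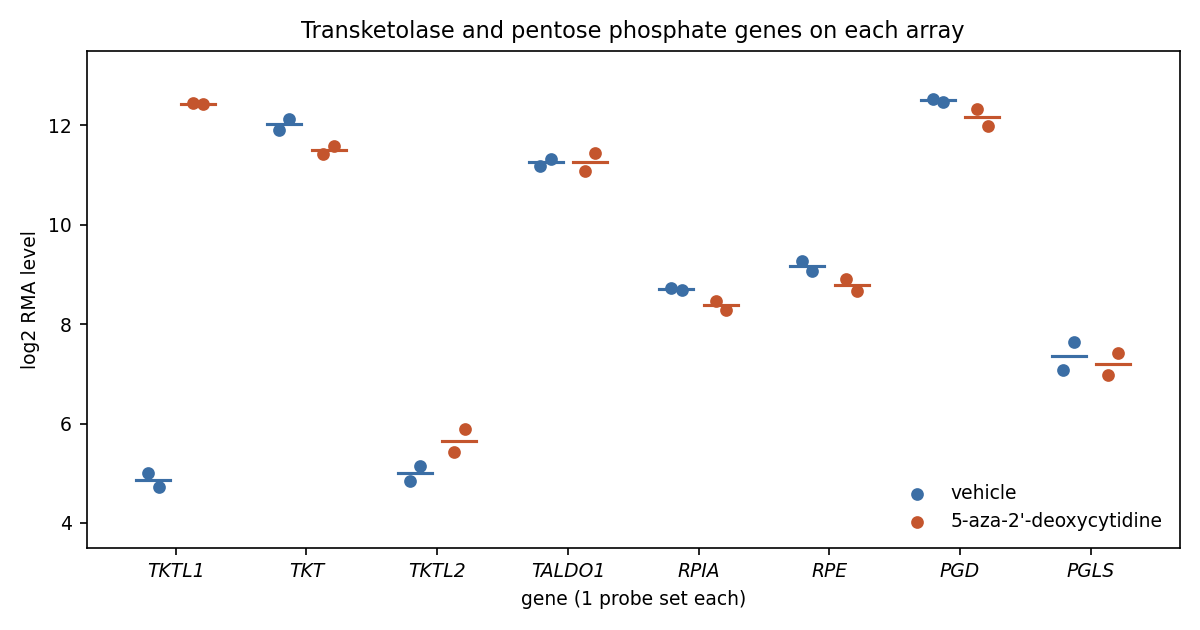
The log2 RMA level of each of the 8 genes (x axis) on each array, vehicle in blue and treated in orange, with a bar at the group mean of 2 arrays. TKTL1 goes from 4.86 to 12.44, while the means of the other 7 genes differ by between -0.51 and 0.66.

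Of the non-oxidative enzymes other than transketolase, TALDO1 had nearly equal means in the groups, and RPIA and RPE were somewhat lower in treated cells. TALDO1, transaldolase, which transfers a dihydroxyacetone unit between sugar phosphates, had levels of 11.19 and 11.33 in vehicle and 11.09 and 11.44 in treated cells. The treated arrays lay on either side of the vehicle arrays, and the log2 fold change was 0.00 (95% interval -0.36 to 0.36). RPIA, the isomerase that makes ribose phosphate from ribulose phosphate, had levels of 8.73 and 8.68 in vehicle and 8.47 and 8.28 in treated cells. RPE, the epimerase that makes xylulose phosphate from the same substrate, had levels of 9.26 and 9.07 in vehicle and 8.92 and 8.67 in treated cells. For both, the treated arrays were lower without overlap, and neither passed the threshold over all genes. The log2 fold change was -0.32 for RPIA (SE 0.12, 95% interval -0.62 to -0.03). For RPE it was -0.37 (SE 0.14, 95% interval -0.70 to -0.04).

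The oxidative enzymes gave similar values. PGD, the dehydrogenase that makes ribulose phosphate and NADPH, had levels of 12.53 and 12.47 in vehicle and 12.33 and 11.99 in treated cells. The groups did not overlap, and the second treated array lay apart from the first by more than the first lay from vehicle. The log2 fold change was -0.34 (SE 0.15, 95% interval -0.69 to 0.01). Leaving out treated replicate 1 gave -0.51 for PGD, -0.42 for RPIA and -0.49 for RPE, and all 3 then passed the threshold. PGLS, the lactonase of the preceding step, had levels of 7.09 and 7.64 in vehicle and 6.98 and 7.41 in treated cells, which overlapped. Its log2 fold change was -0.17 (SE 0.22, 95% interval -0.69 to 0.35).

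In order of log2 fold change the genes were TKTL1, TKTL2, TALDO1, PGLS, RPIA, PGD, RPE and TKT. The interval of TKTL1 was apart from all others. The intervals of TALDO1, PGLS, RPIA, PGD, RPE and TKT overlapped one another, and that of TKTL2 overlapped those of TALDO1 and PGLS. At limma's adjusted p under 0.05 over all genes, 2 of the 8 were called higher and 1 lower, where 28.0% of all genes were called (12.4% higher and 15.6% lower). The arrays did not overlap for 6 of the 8, 2 higher and 4 lower, against 65.8% of all genes (26.3% higher and 39.5% lower). The log2 fold change was below 0 for 5 of the 8 and for 59.4% of all genes. The median was -0.25 over the 8 genes and -0.32 without TKTL1, beside -0.07 over all genes. Since the genes were chosen on this contrast, these counts are a description.

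**Figure D2:**
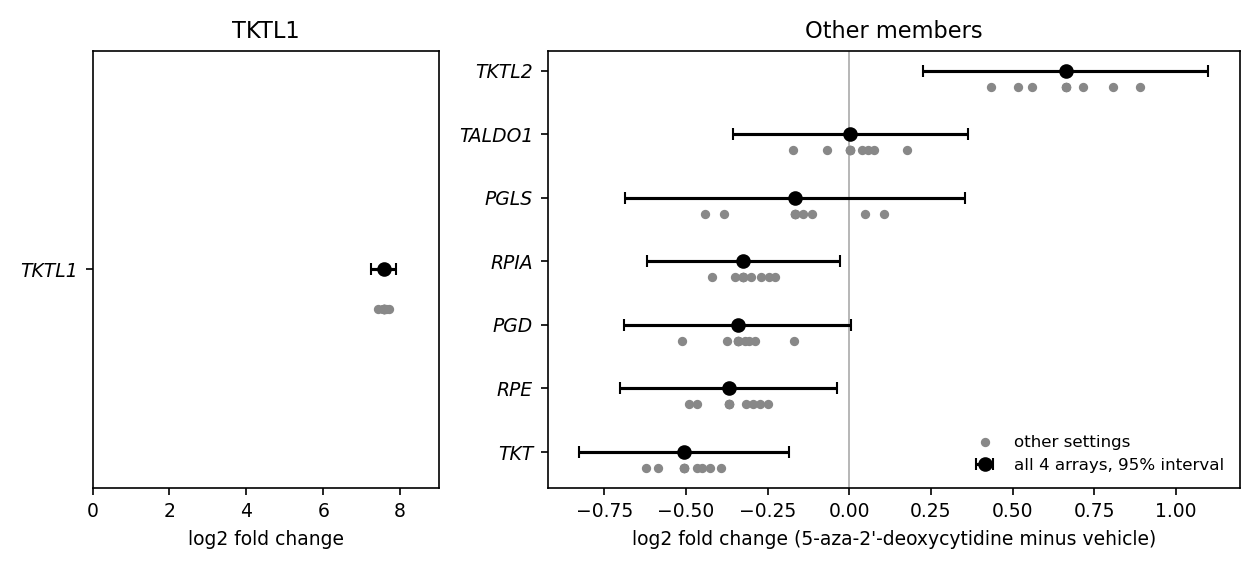
Log2 fold change (treated minus vehicle) of TKTL1 (left) and of the other 7 genes (right, on a finer scale), with the 95% interval of limma's fit in black and the values under the other processing settings in grey. The grey values of TALDO1 and PGLS lie on both sides of 0, and those of TKTL1 run from 7.43 to 7.71.

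The genes around TKTL1 did not share its change. Of the 5 genes on each side that have a probe set of their own, in RefSeq order on the X chromosome, 1 was called higher and 1 lower by limma, and 8 were not called, with a median log2 fold change of -0.03. The nearest, TEX28, a testis-expressed gene, had levels of 4.68 and 4.79 in vehicle and 4.53 and 4.60 in treated cells (log2 fold change -0.17, SE 0.12). On the other side EMD, which encodes the nuclear envelope protein emerin, had a log2 fold change of -0.01 (SE 0.11), and RPL10, a ribosomal protein gene, of -0.05 (SE 0.11). Probe sets were matched to genes by symbol, and whether that of RPL10 reads this locus or a similar copy elsewhere was not tested. RENBP, a renin-binding protein gene, was at 5.30 and 4.94 in vehicle and rose to 5.96 and 6.03 in treated cells (log2 fold change 0.88, adjusted p = 0.00602 in limma's fit). TMEM187, a transmembrane protein gene, fell from 7.20 ± 0.02 to 6.39 ± 0.33 (SD, n = 2; log2 fold change -0.81, adjusted p = 0.0134 in limma's fit). HCFC1, a transcriptional coregulator (0.13), IRAK1, a kinase of Toll-like receptor signaling (0.39), TAFAZZIN, a cardiolipin-remodeling enzyme (-0.43), ATP6AP1-DT (-0.16) and ATP6AP1, a proton pump accessory subunit (0.07), were not called. Without vehicle replicate 2 there were 0 falls among the 10, without treated replicate 2 there were 2 falls, and without treated replicate 1 there were 2 rises.

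**Figure D3:**
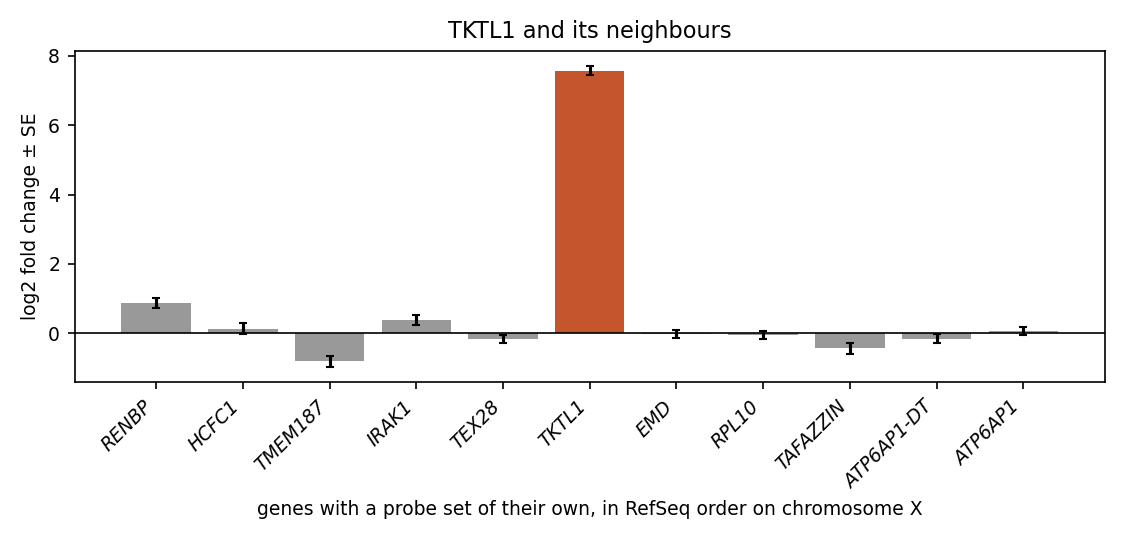
Log2 fold change (treated minus vehicle) with its moderated SE for TKTL1 (orange) and the 5 genes on each side of it (grey), in RefSeq order on the X chromosome; only genes with a probe set of their own are drawn. TKTL1 stands at 7.57, and its neighbours lie between -0.81 and 0.88.

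The genes with the pattern nearest to TKTL1 were found by the Euclidean distance between log2 values over the 4 arrays, each gene centred on its own mean. In order of distance they were MAGEA4, a cancer/testis antigen (0.46), DAZL, a germ cell RNA-binding protein (0.79), UCHL1, a ubiquitin hydrolase (1.10), and GCNA, a germ cell nuclear protein, and SLC34A2, a sodium-phosphate cotransporter (both 1.32). MAGEA4 had levels of 3.25 and 3.61 in vehicle and 10.99 and 11.10 in treated cells, and SLC34A2 of 4.33 and 3.72 and of 10.38 and 10.22. With 4 arrays in 2 groups this likeness mostly reflects the size of the change. The windows of 250 bases before the starts of these genes held different numbers of CG. They held 6 to 14 for MAGEA4, 23 and 28 for DAZL, 20 for UCHL1, 18 for GCNA, and 4 and 33 for SLC34A2.

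Other genes that feed the pathway or use its ribose phosphate were read, like the lists that follow, beside the shares over all genes, of which 12.4% were called higher and 15.6% lower. Of 11 tested from a list of 15, limma called 1 higher and 5 lower, with a median log2 fold change of -0.20 beside -0.07 over all genes. TIGAR, a phosphatase that lowers fructose bisphosphate and thereby favors the pathway, was at 8.50 and 8.31 in vehicle and 9.80 and 9.39 in treated cells. It was 2.28-fold higher (log2 fold change 1.19, SE 0.17, adjusted p = 0.00277 in limma's fit). H6PD, the enzyme that carries out the first oxidative steps in the endoplasmic reticulum, was at 7.58 and 7.73 in vehicle and 6.31 and 6.81 in treated cells. It was 2.14-fold lower (-1.10, SE 0.18, adjusted p = 0.00517 in limma's fit). DERA, the deoxyribose phosphate aldolase, was at 9.07 and 8.89 in vehicle and 8.13 and 7.56 in treated cells and was 2.20-fold lower. PGM1, a phosphoglucomutase, fell by 0.77 on the log2 scale, IDNK, a gluconate kinase, fell by 0.65 and PRPS2, which makes phosphoribosyl pyrophosphate, fell by 0.56. PRPS1, the other synthetase tested, named after its value was seen, was not called (-0.20). Without vehicle replicate 1 there were 2 falls and 1 rise.

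The list of NADPH sources outside the pathway, which also holds linked enzymes, had 1 large rise and several falls. Of 14 tested from a list of 15, limma called 1 higher and 6 lower (median log2 fold change -0.31). NNT, the mitochondrial transhydrogenase that makes NADPH from NADH, was at 3.72 and 4.04 in vehicle and 7.20 and 6.95 in treated cells, with no overlap. It was 9.15-fold higher (log2 fold change 3.19, SE 0.16, adjusted p = 2.97e-05 in limma's fit). MTHFD1, a folate enzyme of the cytosol, fell by 1.13 on the log2 scale and IDH2, the mitochondrial isocitrate dehydrogenase, fell by 0.96. MTHFD1L, a mitochondrial folate enzyme that does not itself make NADPH, fell by 0.68. ME1, the cytosolic malic enzyme, named after its value was seen, was not called (-0.25). Without vehicle replicate 2 the falls numbered 2, and without treated replicate 2 the rises numbered 2.

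In glycolysis, which shares fructose phosphate and glyceraldehyde phosphate with the pathway, 1 of 20 tested genes was called higher and 6 lower by limma, from a list of 22 (median log2 fold change -0.07). FBP2, the muscle form of fructose bisphosphatase, was at 3.71 and 4.11 in vehicle and 6.72 and 6.87 in treated cells. It was 7.40-fold higher (log2 fold change 2.89, SE 0.16, adjusted p = 4.93e-05 in limma's fit), while FBP1, the liver form, named after its values were seen, was at 4.83 in both groups. PFKM, a phosphofructokinase subunit, fell by 0.91 on the log2 scale. PFKFB1 and PFKFB4, which set the level of the activator of phosphofructokinase, fell by 0.87 and by 0.78. PFKFB1 lay low on the scale, at 5.25 and 5.35 in vehicle and 4.34 and 4.51 in treated cells, and was among the dimmest 33.3% of genes. Of the enzymes that make or use glyceraldehyde phosphate, TPI1 (-0.10), GAPDH (0.05) and the aldolase gene ALDOA (-0.05) were not called. The aldolase gene ALDOC (-0.67) was called lower, as was GPI (-0.46), whose enzyme forms fructose phosphate. All of these were named after their values were seen. Without vehicle replicate 2 the falls numbered 3.

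The genes of thiamine transport and of the other thiamine-dependent enzymes had 6 falls and 0 rises among 12 tested, of 16 listed, in limma's fit (median log2 fold change -0.52; at an unadjusted p under 0.05, 0 were higher and 7 lower). The share over all genes at an unadjusted p is not given here. BCKDHA and BCKDHB, the E1 subunits of branched-chain ketoacid dehydrogenase, fell by 1.13 and by 1.11 on the log2 scale. BCKDHA was at 10.21 and 10.41 in vehicle and 9.12 and 9.26 in treated cells. DHTKD1, a mitochondrial ketoacid dehydrogenase subunit, fell by 0.85 and OGDHL, a relative of oxoglutarate dehydrogenase, fell by 0.58. The thiamine transporter genes SLC19A2 (-0.22) and SLC19A3 (0.23), named after their values were seen, were not called. The falls numbered 3 without vehicle replicate 1, and also 3 without vehicle replicate 2.

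Targets of NRF2, the oxidant-responsive factor of which TKT, TALDO1 and PGD are known targets, had 1 rise and 3 falls among 19 tested of 20 listed in limma's fit (median log2 fold change -0.10; at an unadjusted p under 0.05, 1 was higher and 7 lower). At the adjusted threshold the share of falls is near that over all genes (15.6%). The counts at an unadjusted p have no such share beside them. The transporter gene ABCC2 fell by 1.78 on the log2 scale, SLC7A11, the cystine transporter, fell by 0.93 and NQO1, a quinone reductase, fell by 0.47. HMOX1, heme oxygenase, rose by 0.59. There were 0 rises when either vehicle array or treated replicate 2 was left out, and without treated replicate 1 there were 6 falls.

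Purine and pyrimidine synthesis consume phosphoribosyl pyrophosphate at some of their steps. Their enzymes had 5 falls and 0 rises among 19 tested of 20 listed in limma's fit (median log2 fold change -0.21). At an unadjusted p under 0.05 in that fit, 0 were higher and 7 lower, with no share over all genes given at that threshold. DHODH, the dihydroorotate dehydrogenase, was at 8.82 and 8.70 in vehicle and 7.52 and 6.79 in treated cells and was 3.04-fold lower. CTPS2, a CTP synthase, fell by 0.92 on the log2 scale, TYMS, thymidylate synthase, fell by 0.60, CAD, the first enzyme of pyrimidine synthesis, fell by 0.47 and PAICS, a purine enzyme, fell by 0.41. PPAT, which starts purine synthesis from phosphoribosyl pyrophosphate, was not called (-0.33). Nor were UMPS (-0.21), HPRT1 (-0.15) and APRT (0.26), whose enzymes also use that compound. All of these were named after their values were seen. The falls numbered 2 without vehicle replicate 1, and also 2 without vehicle replicate 2.

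**Figure D4:**
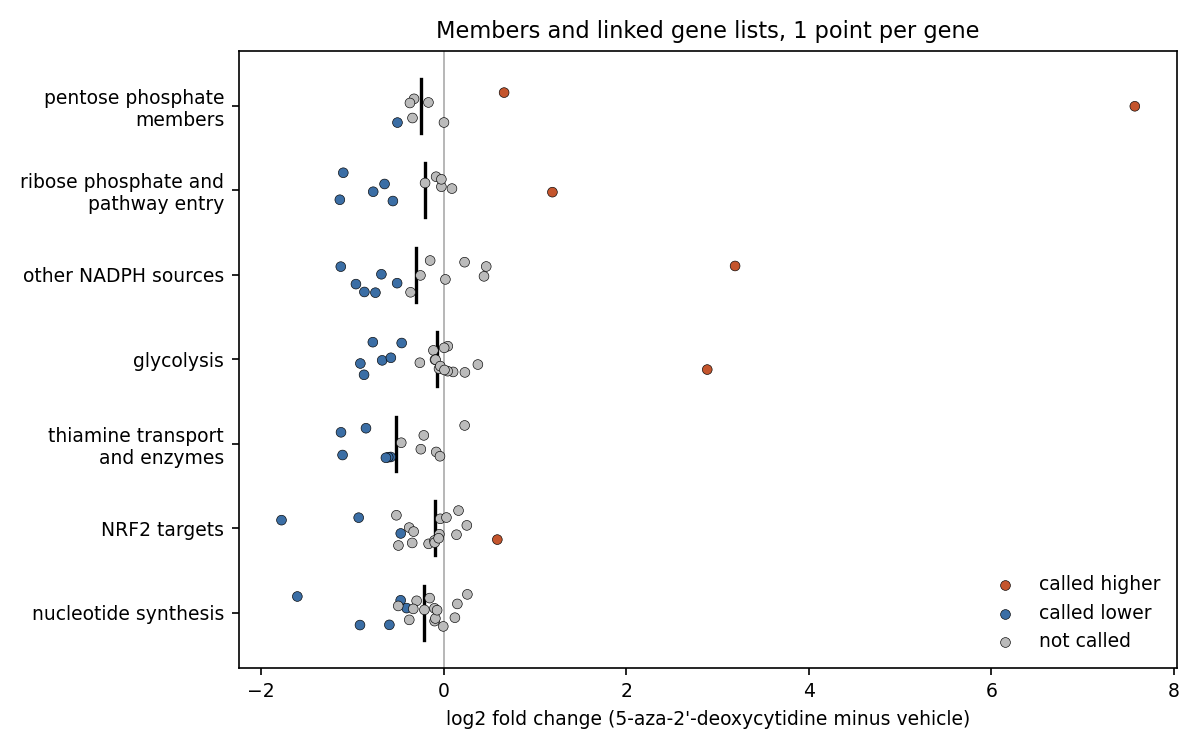
Log2 fold change (treated minus vehicle) of the 8 genes and of the 6 linked gene lists, 1 point per gene, orange where limma called the gene higher, blue where lower and grey where not called, with a black bar at each median. TKTL1 at 7.57, NNT at 3.19 and FBP2 at 2.89 stand to the right of all other points, and the list medians lie between -0.52 and -0.07.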

How the data were processed

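Transcript levels were measured in 4 samples, 2 per group, 1 array each. The deposited table holds log2 levels for 33297 probe sets, which the authors obtained with RMA in Affymetrix Expression Console, per the submitters' processing notes; its version is not given in the sources used here. Quantile normalization in RMA hides a change of total RNA per cell, and folds near background are usually compressed. A platform annotation table named 19181 probe sets with 1 symbol, and each of 17958 genes took its probe set with the highest mean.

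The contrast was fitted in R 4.3.3 with limma 3.58.1 (lmFit, eBayes, without covariates, two-sided, Benjamini-Hochberg over all genes, called at adjusted p under 0.05), after testing on simulated data. An exact permutation test of 2 arrays against 2 cannot go below 0.333, so calls rest on limma's pooled variance, and 4 arrays limit the precision. No set test was run.

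The 8 genes and the gene lists were chosen with earlier results of these data known. Named genes were the 8, the 5 genes each side of TKTL1, the 5 most alike, and in each list the 4 with the smallest p-value plus every call in a direction with 5 or fewer; others are marked. Not every listed gene was analysed here. Promoter windows came from RefSeq, where all 8 genes matched; bases after the start were left out. Alternatives left out each array, blocked on replicate number, rescaled, filtered dim genes, changed the probe set of a gene, the variance model or the threshold.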

Additional observations from a re-analysis of the deposited data

How the results depend on the processing

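Over all genes, leaving out 1 array gave 1267 to 2530 higher and 1196 to 3401 lower calls (2229 and 2794 with all 4), and an adjusted p under 0.01 gave 1298 and 1255. TKTL1 ran from 7.43 to 7.71 and its change relative to TKT from 7.82 to 8.34 with 1 array left out, and both moved by less than the replicate spread in the other settings. Of the 8 genes, 1 to 2 were called higher and 0 to 3 lower with 1 array left out, 1 higher after repeated quantile normalization and without the dimmest 33.3% of genes (which leaves out TKTL2), 0 lower with housekeeping centring, and 1 and 0 at the stricter threshold.

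With 1 array left out the falls ran from 2 to 5 for ribose phosphate and pathway entry, 3 to 6 for glycolysis, 3 to 8 for thiamine, 2 to 7 for NADPH sources (rises 1 to 2), 2 to 6 for NRF2 targets (rises 0 to 1), 2 to 7 for nucleotide synthesis and 0 to 2 for the neighbours of TKTL1 (rises 1 to 2). Glycolysis had 2 rises with repeated quantile normalization, housekeeping centring, the intensity trend or the replicate block. Nucleotide synthesis had 3 falls under each of the 2 scalings. Without the dimmest 33.3% of genes NADPH sources had 0 rises, since NNT is left out. The stricter threshold gave 3, 3 and 2 falls for ribose phosphate, thiamine and nucleotide synthesis, 0 rises for NRF2 targets and 0 falls for the neighbours.

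The numbers 1 and 2 in both groups may or may not pair the samples: deviations of same-numbered arrays correlated at 0.27 over genes, with only 2 pairs. With the replicate block 2 of the 8 genes were called lower (RPE besides TKT), and NRF2 targets had 7 falls, nucleotide synthesis 8, and the neighbours 2 rises and 2 falls.

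Among called genes outside the 8, calls in all 13 settings, that of the report included, were kept by, for example, TIGAR, H6PD, DERA, BCKDHA and DHODH, and NNT and FBP2 kept theirs in the 12 that held them. Others lost it in several: PAICS was called in 6, CAD in 7, NQO1 in 8, and HMOX1 and PRPS2 in 9 of 13. Without detection calls, how far the low signals of TKTL2 and PFKFB1, and of TKTL1, NNT and FBP2 in vehicle, lie above background is unknown.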

Other observations

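The TKTL1 window before the first start, printed above, held the letters GGAGGGAG 5 times, counting both strands with overlaps allowed; this motif was chosen after the sequence was seen. The window before the second start held 0 and the PGD window 1, and the windows of the other 6 genes held none. Of the 35116 windows, 8.03% held it at least once and 0.094% at least 5 times. The letters CACGTG, an E-box, occurred 2 times before TKTL2 and in none of the other member windows (6.34% of all windows). GGGCGG, a GC box, occurred 5 times before TKT and 0 times before TKTL1 and PGLS. It occurred 3 times before RPE, 2 times each before TKTL2, TALDO1 and PGD, and 1 time before RPIA. Of all windows, 42.6% held it at least once and 4.15% at least 5 times. The letters TGACNNNGC, found in antioxidant response elements, occurred once before RPE and once before PGD (10.9% of all windows). These are matches of letters in a window and say nothing about binding.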
